A study of Mus musculus with 6 samples.

Results

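Zfp genes encode proteins with zinc fingers, and many of them are DNA-binding repressors. The set described here was defined by name and by level, and was chosen with earlier results of these data known. It holds the protein-coding genes whose symbol is Zfp followed by a number, and the average normalized count, taken over all 6 libraries, is 100 or more. This rule found 211 of the 38258 genes in the deposited table. Zfp750 was left out by the rule. Another 128 protein-coding Zfp genes had a mean of 10 to under 100, and 21 had a mean under 10, out of 360 with a symbol of this form.

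RNA was measured by sequencing in epidermal cells of newborn mice at postnatal day 0, sorted from back skin as positive for EpCAM and Sca1 and high for α6-integrin. The 3 libraries labelled triple knockout carry the genotype label Eed -/- Ring1a-/- Ring1b-/-, and the other 3 libraries carry the genotype label Control. Eed belongs to the core of Polycomb repressive complex 2, and Ring1a (gene Ring1) and Ring1b (gene Rnf2) are the catalytic subunits of Polycomb repressive complex 1. The Cre driver, the alleles of the controls, the strain and the number of animals per library are not given in the sources used here. The question that the design poses is how Zfp genes differ in level between epidermal cells labelled as lacking Polycomb subunits and control cells.

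Most mammalian Zfp proteins bind DNA through arrays of C2H2 fingers, in which a pair of cysteines and a pair of histidines hold a zinc ion. A large subclass also carries a KRAB box, which recruits Trim28 and, through it, the histone H3K9 methyltransferase Setdb1, and KRAB proteins are known for silencing retroelements and for keeping methylation at imprinted loci. KRAB genes sit largely in tandem arrays, while Zfp genes without the box include activators, RNA-binding proteins and developmental regulators.

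The deposited normalized counts summed to 23.3, 24.7 and 27.0 M in the labelled triple-knockout libraries and to 23.4, 21.9 and 29.8 M in the controls. The number of reads behind these sums is not established, since whole reads could not be recovered. Ribosomal RNA took 27.6% to 31.4% of the labelled triple-knockout values and 22.5% to 36.6% of the control values. Of the targeted genes, Eed had 381, 604 and 441 normalized counts in labelled triple-knockout libraries, against 714, 1015 and 778 in controls, a log2 change of -0.82 ± 0.21 (SE; limma adjusted p = 0.0144). That call was lost without labelled triple-knockout replicate 1, labelled triple-knockout replicate 3 or control replicate 2 (limma adjusted p from 0.0098 to 0.0615 over the 6 fits that leave out 1 library). Ring1 went against the labels, with 67.7, 104 and 112 normalized counts in the libraries labelled triple knockout and 11.8, 8.72 and 23.1 in controls. Rnf2 did not pass the test. The table gives 1 value per gene, so these values do not show whether a deleted exon is missing. Among the markers of the sorted cells, Epcam and Ly6a (Sca1) were higher in libraries labelled triple knockout, and Itga6, Krt5, Krt14 and Trp63 were lower. All 4 melanocyte markers were higher (summed count 737 to 1088 in libraries labelled triple knockout, 224 to 341 in controls), as were the 3 Merkel cell markers that were tested (summed with Atoh1, 472 to 615 in libraries labelled triple knockout, 21.8 to 58.7 in controls), while the Merkel factor Atoh1 was at 0 in every library except control replicate 3. None of the 6 fibroblast, 3 endothelial, 3 leukocyte and 2 muscle markers tested passed, and of 3 erythroid markers tested Alas2 was lower while Hbb-bt and Hba-a1 did not pass. The summed fibroblast count was 9336 to 14559 in libraries labelled triple knockout and 8090 to 30213 in controls. Control replicate 3 was the highest control for each of the 6 fibroblast markers, as for Col1a1 (10279, against 1622 and 3003). With this spread, a marker that did not pass does not show like cell content in the groups. In such bulk libraries fewer cells of a type and less RNA per cell cannot be told apart, and the part of cell mixture in the values below was not tested.

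Among well-expressed Zfp genes, falls outnumbered rises in the libraries labelled triple knockout. Of the 211 genes, 100 were lower (47.4%), 16 were higher (7.58%) and 95 did not pass the test (limma on log2(normalized count + 1), adjusted p under 0.05 over the 23006 genes with a mean of at least 10). Over all tested genes the shares were 15.3% lower and 20.5% higher, and over the 11027 protein-coding genes that reached a mean of 100 they were 20.1% lower and 25.9% higher. The median log2 change of the Zfp genes was -0.54, with quartiles of -0.86 and -0.07. The median was 0.05 for the other 10816 protein-coding genes of that level, and 0.01 for all tested genes. A log2 change is the mean of the labelled triple-knockout libraries minus the mean of the controls on the log2(normalized count + 1) scale, which understates the change of low genes. It was below 0 in 164 of the 211 genes, and in 5277 of the 11027 protein-coding genes that reached a mean of 100. At least 2-fold differences were held by 34 of the lower and 10 of the higher Zfp genes. Among the 11027 protein-coding genes, 865 were lower and 1866 higher by at least 2-fold.

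The shift was present in each library labelled triple knockout. The median Zfp gene deviated from its control mean by -0.46, -0.58 and -0.48 on the log2 scale in labelled triple-knockout libraries 1, 2 and 3, and by 0.01, -0.02 and 0.03 in control libraries 1, 2 and 3. The same deviation of the other protein-coding genes was 0.02, 0.07 and 0.09 in the libraries labelled triple knockout, against -0.01, -0.05 and 0.06 in the controls. Summed over the 211 genes, the normalized count was 133113, 131310 and 144252 in labelled triple-knockout libraries and 187047, 180029 and 205343 in controls, so these sums did not overlap. All 3 libraries labelled triple knockout lay below all 3 controls for 117 Zfp genes (55.5%), and above them for 22 (10.4%). Over protein-coding genes with a mean of at least 100 these shares were 27.0% and 31.3%. Leaving out labelled triple-knockout replicate 2 reduced the lower calls to 63 and the median to -0.48, and leaving out any other single library gave 72 to 105 lower calls.

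**Figure D1:**
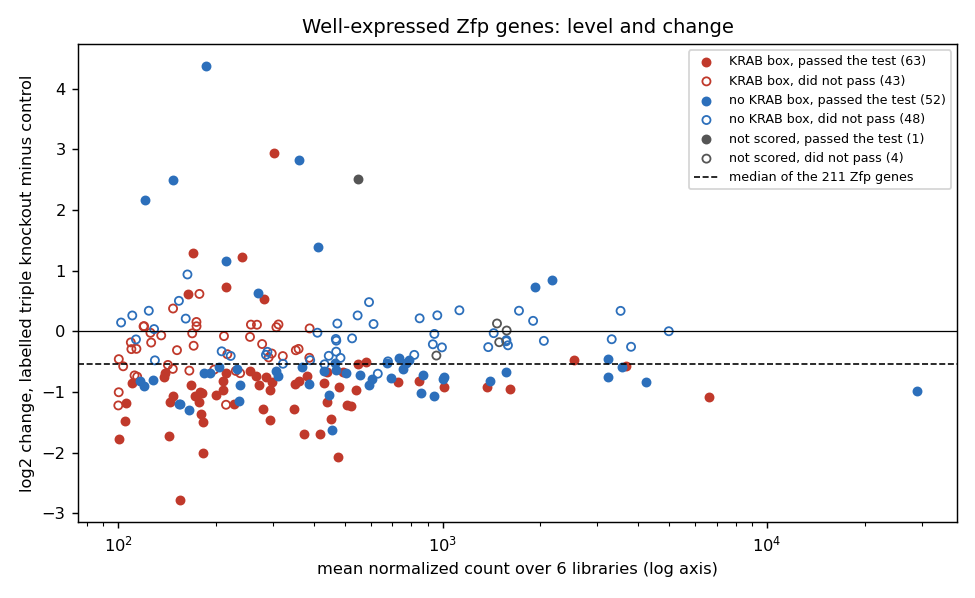
Each point is 1 of the 211 Zfp genes, with its mean normalized count over 6 libraries on the horizontal log axis and its log2 change, labelled triple knockout minus control, on the vertical axis. Filled points passed the limma test, red marks genes with a KRAB box and blue genes without; most points lie below 0, and the dashed line is the median of -0.54.

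Because the rule uses the mean of all libraries, a gene can enter through 1 group. A control mean under 100 was found for 7 members, of which 5 were higher and 0 lower, so these had entered through the labelled triple-knockout libraries alone. A labelled triple-knockout mean under 100 was found for 24 members, of which 17 were lower. Had a control mean of at least 100 been the rule, 5.05% of the 218 genes would have been higher and 51.4% lower. That rule keeps genes by their control level alone, so it favours lower genes by itself. No share over all genes under it is given here. Just inside the limit, Zfp28, Zfp61 and Zfp811 had means of 100.1, 100.4 and 100.4 normalized counts and log2 changes from -1.22 to -0.46. Just outside it, Zfp112, Zfp951 and Zfp760 had means of 99.7, 98.4 and 98.3 and log2 changes of -0.49, -1.05 and -0.54. Values of single genes near the limit moved with 1 library. Zfp760 was -1.22 without control replicate 3 (limma adjusted p = 0.00692, with a range of 0.00692 to 0.893 over the alternatives), Zfp28 was -1.67 without control replicate 2 (0.0144, with a range of 0.00621 to 0.198), and Zfp61 was -0.40 without labelled triple-knockout replicate 1 and did not pass in any alternative.

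The 12 genes that fell most had log2 changes from -2.79 to -1.45, and 11 of them encode a KRAB box. Zfp39, Zfp433, Zfp65, Zfp120, Zfp748 and Zfp606 had labelled triple-knockout means under 100 (38.5 to 95.9). These genes entered the set only through the controls. Zfp39, a KRAB gene with 12 finger patterns (chr11:58888153-58904225), had 34.6, 32.8 and 48.0 normalized counts in labelled triple-knockout libraries, against 258, 223 and 334 in controls. No labelled triple-knockout library reached the controls, and the log2 change was -2.79 ± 0.25 (SE, n = 3 each; limma adjusted p = 5.03e-05). Zfp799 (chr17:32815449-32830261), a KRAB gene with 17 finger patterns, had 187, 119 and 261 normalized counts in labelled triple-knockout libraries and 915, 679 and 699 in controls. Its log2 change was -2.07 ± 0.28 (limma adjusted p = 0.000462), again with groups that did not overlap. Zfp748 (chr13:67538641-67553830), which has 23 finger patterns, had 50.5, 106 and 67.1 normalized counts in libraries labelled triple knockout, against 283, 265 and 320 in controls. A gene annotated on its other strand, 9430065F17Rik, overlaps its span. The strand setting is not given, so whether reads from both strands were told apart is not known. Of the 31-base words of the Zfp748 transcripts, taken on either strand, 11.9% also occur in other genes.

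Zfp101 and Zfp866 had the smallest standard errors among the 12 falls. Zfp101 (chr17:33360507-33394641) had 197, 178 and 154 normalized counts in labelled triple-knockout libraries and 601, 590 and 519 in controls, a log2 change of -1.69 ± 0.17 (limma adjusted p = 0.000104). Zfp866 (chr8:69761326-69791178) had 202, 182 and 211 in labelled triple-knockout libraries and 668, 588 and 670 in controls, a log2 change of -1.69 ± 0.16 (limma adjusted p = 6.9e-05), and Atp13a1 lies on the opposite strand of it. In both genes the libraries within a group lay close together and far from the other group. Zfp367, the only 1 of the 12 without a KRAB box and with 2 finger patterns, had 173, 234 and 272 normalized counts in libraries labelled triple knockout, against 680, 743 and 642 in controls. Zfp949 had 148, 158 and 157 in labelled triple-knockout libraries and 461, 462 and 372 in controls. Zfp120, Zfp606 and Zfp386 fell with log2 changes of -1.72, -1.49 and -1.45. Zfp433 (-1.78) and Zfp65 (-1.48) are uncertain, since 87.1% and 21.8% of the 31-base words of their transcripts also occur in other genes. For each of the 12 the call held in all 16 alternatives.

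The rises were fewer, and several were from a low control level. Zfp423 (chr8:87661810-87959595), an Ebf-binding regulator known for adipocyte commitment and cerebellar development, had 299, 413 and 337 normalized counts in labelled triple-knockout libraries, against 2.92, 31.9 and 35.1 in controls. Control replicate 1 stood far below the other controls; the log2 change was 4.38 ± 0.73 (SE, n = 3 each; limma adjusted p = 0.00151), and 3.34 without that library. Zfp521, the paralog of Zfp423, had 158, 272 and 323 normalized counts in libraries labelled triple knockout, against 30.6, 58.7 and 40.6 in controls (log2 change 2.49 ± 0.34; limma adjusted p = 0.000472). Zfp57 (chr17:37001163-37010635), a KRAB protein that protects methylation at imprinting control regions, had 410, 623 and 573 normalized counts in labelled triple-knockout libraries and 59.6, 87.5 and 59.1 in controls. Its log2 change was 2.94 ± 0.24 (limma adjusted p = 2.98e-05), with no overlap between the groups.

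Zfp365, a centrosomal and neuronal protein, had 584, 579 and 697 normalized counts in libraries labelled triple knockout, against 50.8, 63.2 and 196 in controls (log2 change 2.83 ± 0.43; limma adjusted p = 0.000934). Zfp608, a paralog of Zfp609, had 929, 897 and 960 in labelled triple-knockout libraries and 110, 158 and 245 in controls (log2 change 2.51 ± 0.27; limma adjusted p = 0.000118). In both genes control replicate 3 was the highest control and still far below every library labelled triple knockout. Zfp623 had 170, 187 and 241 normalized counts in labelled triple-knockout libraries and 43.3, 41.3 and 44.2 in controls. The X-linked Zfp275 had 627, 600 and 566 in libraries labelled triple knockout and 235, 182 and 277 in controls. Zfp612 and Zfp7 rose with log2 changes of 1.30 and 1.23. Zfp7 shares 20.5% of its 31-base words with other genes. The calls of these 9 rises held in all 16 alternatives, except that Zfp608 could not be fitted with GC content and transcript length removed.

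Zfp692 (1.15), Zfp703 (0.85) and Zfp316 (0.73) made up the 12 rises, but their calls did not hold when base composition was taken out. With GC content and transcript length removed they were 0.61, 0.13 and -0.03, with limma adjusted p of 0.0868, 0.472 and 0.949. Over all alternatives the adjusted p ranged from 0.00217 to 0.0868 for Zfp692, from 0.000217 to 0.472 for Zfp703 and from 0.00964 to 0.949 for Zfp316. The call of Zfp316 was also lost without labelled triple-knockout replicate 1, labelled triple-knockout replicate 3 or control replicate 1. Of the 12 rises, 4 encode a KRAB box and 7 do not, and Zfp608 was not scored; 5 of the 12 had a control mean under 100. The other higher genes were Zfp462, Zfp800, Zfp334 and Zfp9, and none of these calls held in every alternative.

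**Figure D2:**
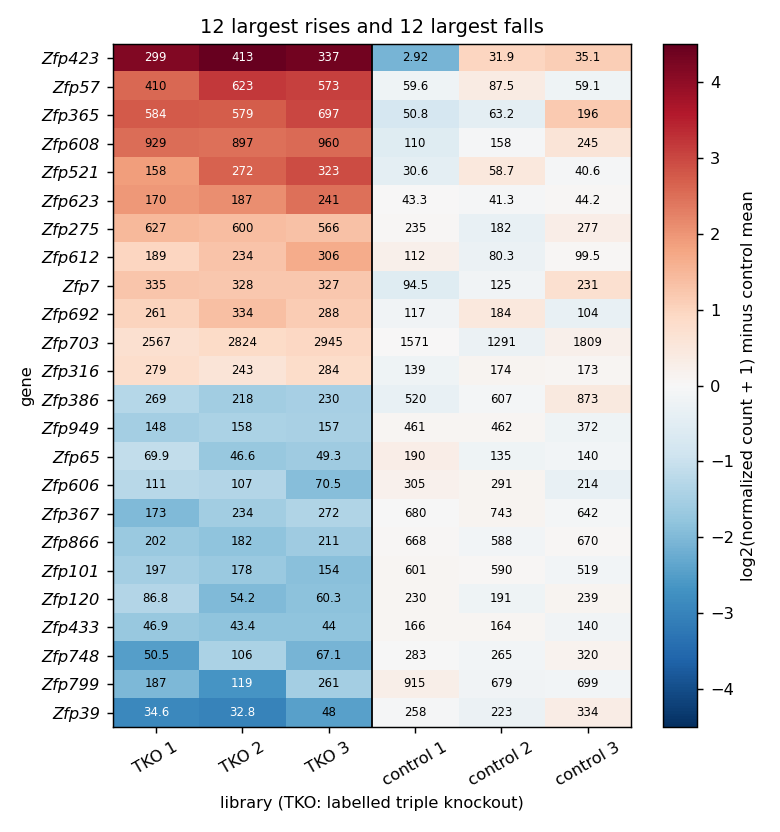
Normalized counts (printed) of the 12 largest rises and 12 largest falls in the 6 libraries, with labelled triple-knockout libraries (TKO) in the left columns and controls in the right columns; colour is log2(normalized count + 1) minus the control mean. Every TKO value of the upper genes lies above, and every TKO value of the lower genes below, all 3 controls of the same gene.

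Promoter sequences of the 2 largest falls and the 2 largest rises were set side by side, since a high density of CpG dinucleotides is a known feature of promoters that Polycomb complexes bind. Each runs from 250 bases before to 50 bases after the gene start on the gene's own strand, from RefSeq (GRCm38.p6), at chr11:58904176-58904475 (minus strand), chr17:32830212-32830511 (minus), chr8:87959546-87959845 (minus) and chr17:37000913-37001212 (plus). Capitals mark every CpG dinucleotide.
Zfp39: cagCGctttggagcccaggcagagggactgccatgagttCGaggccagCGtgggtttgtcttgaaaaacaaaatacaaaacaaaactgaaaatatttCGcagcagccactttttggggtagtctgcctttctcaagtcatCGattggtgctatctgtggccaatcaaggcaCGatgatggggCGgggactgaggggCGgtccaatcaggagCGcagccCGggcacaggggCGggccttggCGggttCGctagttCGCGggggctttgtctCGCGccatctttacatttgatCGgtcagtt
Zfp799: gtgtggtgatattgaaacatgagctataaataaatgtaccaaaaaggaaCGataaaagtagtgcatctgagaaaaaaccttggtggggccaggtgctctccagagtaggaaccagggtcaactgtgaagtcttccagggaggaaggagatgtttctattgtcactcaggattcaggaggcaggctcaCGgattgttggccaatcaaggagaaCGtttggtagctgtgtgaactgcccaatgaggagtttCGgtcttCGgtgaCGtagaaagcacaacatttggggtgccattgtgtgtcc
Zfp423: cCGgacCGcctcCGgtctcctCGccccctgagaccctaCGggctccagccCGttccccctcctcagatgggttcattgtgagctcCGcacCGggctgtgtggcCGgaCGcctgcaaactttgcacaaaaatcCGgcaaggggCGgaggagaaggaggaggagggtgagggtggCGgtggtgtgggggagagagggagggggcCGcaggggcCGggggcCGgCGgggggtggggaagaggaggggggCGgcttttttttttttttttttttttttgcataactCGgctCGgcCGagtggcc
Zfp57: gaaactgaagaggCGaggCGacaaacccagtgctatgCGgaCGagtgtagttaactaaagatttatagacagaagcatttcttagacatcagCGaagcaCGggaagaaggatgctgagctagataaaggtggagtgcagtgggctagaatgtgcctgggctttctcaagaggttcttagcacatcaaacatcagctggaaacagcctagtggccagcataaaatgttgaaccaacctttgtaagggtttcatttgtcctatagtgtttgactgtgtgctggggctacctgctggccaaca

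The CpG counts did not order these genes by direction. The motif CG, which reads the same on both strands, occurred 18 times in the window of Zfp39 and 6 times in that of Zfp799, both of which fell, and 21 times in that of Zfp423 and 6 times in that of Zfp57, both of which rose. At least 18 CpGs were present in 42.3% of all 17822 RefSeq promoters of this length, at least 21 in 35.1%, and at least 6 in 70.9%. A RefSeq promoter was matched by symbol for 173 of the 211 Zfp genes (82.0%). Their median CpG count was 16, against 22 for protein-coding genes averaging 100 or more and 14 for all promoters. It was 16.5 in the 8 higher Zfp genes that had a promoter, 14 in the 89 lower genes and 17 in the 76 that did not pass. By class, it was 11 in 93 KRAB genes and 20 in 80 genes without the box.

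Zfp genes that act on RNA included the gene with by far the largest count. Of 7 such members 4 were lower, 0 were higher and 3 did not pass, where 20.1% of protein-coding genes averaging 100 or more were lower and 25.9% higher, and the median log2 change was -0.61. Zfp36 (tristetraprolin), which binds AU-rich elements in cytokine and growth factor mRNAs and hastens their decay, had 18564, 17292 and 22812 normalized counts in labelled triple-knockout libraries, against 35338, 34157 and 46533 in controls. The groups did not overlap, and the log2 change was -0.98 ± 0.16 (SE, n = 3 each; limma adjusted p = 0.00135). Zfp346, a double-stranded RNA-binding protein, had 80.5, 117 and 82.3 normalized counts in libraries labelled triple knockout, against 219, 170 and 256 in controls (log2 change -1.19 ± 0.25, limma adjusted p = 0.00467). With a labelled triple-knockout mean of 93.4, it entered the set only through the controls. Zfp638 (-0.82) and Zfp830 (-0.61) were also lower, but both calls were lost without any 1 of the 5 libraries other than control replicate 3, which left 2 lower members. Over the alternatives their limma adjusted p ranged from 5.2e-05 to 0.0784 and from 0.0105 to 0.151. Zfp598, a ubiquitin ligase that marks collided ribosomes, had a log2 change of 0.26, Zfp326, which links splicing to RNA polymerase II, one of -0.14, and Zfp106 one of 0.34, and none of these passed the test; Zfp106 passed without control replicate 3 (0.42, limma adjusted p = 0.014, with a range of 0.014 to 0.241 over the alternatives).

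Of 5 repressors of imprinted loci and retroelements, 2 were lower and 1, Zfp57, was higher; 20.1% of protein-coding genes averaging 100 or more were lower and 25.9% higher. Zfp57 had a control mean of 68.7 and entered the set only through the libraries labelled triple knockout. Zfp445, which acts beside Zfp57 at imprinting control regions, had 1236, 957 and 1107 normalized counts in labelled triple-knockout libraries, against 2405, 2236 and 1757 in controls (log2 change -0.95 ± 0.16; limma adjusted p = 0.00184). Zfp57 thus stood above all controls and Zfp445 below all controls. Zfp961 had 138, 146 and 170 normalized counts in libraries labelled triple knockout, against 252, 276 and 277 in controls (log2 change -0.83 ± 0.18; limma adjusted p = 0.00701). Zfp568, which represses the placental promoter of Igf2, had a log2 change of 0.05, and Zfp809, which silences murine leukaemia virus through its primer binding site, one of -0.31; neither passed the test. Zfp932 had a mean of 81.5 and was no member.

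General transcriptional activators and Zfp partners of chromatin complexes were lower or did not pass. Of 6 activators, 3 were lower and 0 higher, where 20.1% of protein-coding genes averaging 100 or more were lower and 25.9% higher. Zfp143, which activates genes through promoter-proximal sites, had 141, 130 and 163 normalized counts in labelled triple-knockout libraries, against 405, 252 and 319 in controls (log2 change -1.15 ± 0.22; limma adjusted p = 0.00347). Zfp131 fell with a log2 change of -0.78 (limma adjusted p = 0.0074), and with GC content and transcript length removed it was -0.47 (adjusted p = 0.0938, the highest over the alternatives). Zfp335 (-0.52) was lower, but its call was lost without any 1 of the libraries labelled triple knockout or control replicate 2 (limma adjusted p from 0.00217 to 0.151 over the alternatives). The GC-box binders Zfp148 (-0.16) and Zfp281 (0.21), and Zfp384 (-0.39), did not pass. Zfp384 passed as lower with trimmed-mean scaling, with quantile normalization or with GC content and transcript length removed. Its limma adjusted p ranged from 0.0122 to 0.202 over the alternatives.

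Of 10 partners of chromatin complexes and the spindle, 4 were lower and 0 higher, where 20.1% of protein-coding genes averaging 100 or more were lower and 25.9% higher. Zfp592, a component of a complex with Zmynd8, had 531, 607 and 677 normalized counts in labelled triple-knockout libraries, against 1249, 1092 and 1491 in controls (log2 change -1.07 ± 0.17; limma adjusted p = 0.00104). Zfp644, a partner of the H3K9 methyltransferases Ehmt1 and Ehmt2, had 3027, 2790 and 3266 in libraries labelled triple knockout and 5719, 4755 and 5793 in controls (log2 change -0.84 ± 0.13; limma adjusted p = 0.00109). Neither gene's groups overlapped. Zfp609 (-0.58), a partner of Integrator, lost its call without labelled triple-knockout replicate 1 or 3, and Zfp91 (-0.46), a ubiquitin ligase of noncanonical NF-kB signalling, without any 1 library other than control replicate 2. Without labelled triple-knockout replicate 1 or 3 the number of lower members was 2. Over the alternatives the limma adjusted p ranged from 0.00268 to 0.0741 for Zfp609 and from 0.0143 to 0.128 for Zfp91. Zfp207 (-0.25), a spindle-assembly factor, Zfp217 (0.26), Zfp277 (-0.48), Zfp532 (0.13), Zfp687 (0.12) and Zfp827 (0.48) did not pass. Without control replicate 3, Zfp207 (-0.39) and Zfp827 (0.79) did, with limma adjusted p of 0.0244 and 0.00288 (0.0244 to 0.926 and 0.00288 to 0.427 over the alternatives). Zfp277 passed as lower with a filter at a mean of 50, with trimmed-mean scaling or with quantile normalization. Its limma adjusted p ranged from 0.0166 to 0.324 over the alternatives.

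Developmental regulators held both rises and falls. Of 9 members, 5 were higher (Zfp365, Zfp423, Zfp462, Zfp521 and Zfp703) and 2 were lower, with a median log2 change of 0.72; over protein-coding genes of that level 25.9% were higher and 20.1% lower. Zfp423 and Zfp521 had control means of 23.3 and 43.3 and entered the set only through the libraries labelled triple knockout. With GC content and transcript length removed, 3 members were higher and 3 lower. Zfp462, known for guarding heterochromatin in embryonic stem cells, had 2441, 2397 and 2278 normalized counts in labelled triple-knockout libraries, against 1418, 1079 and 1929 in controls (log2 change 0.72 ± 0.20; limma adjusted p = 0.0186). Its call was lost without any 1 of the libraries labelled triple knockout (limma adjusted p from 0.000384 to 0.0763 over the alternatives). The corepressor paralogs Zfp703 and Zfp503 moved in opposite directions, though the Zfp703 call was lost with GC content and transcript length removed (0.13). Zfp703 had 2567, 2824 and 2945 normalized counts in libraries labelled triple knockout and 1571, 1291 and 1809 in controls, whereas Zfp503 had 493, 475 and 731 in libraries labelled triple knockout and 1405, 1037 and 990 in controls (log2 change -1.02 ± 0.21; limma adjusted p = 0.00476). Zfp219 (-0.58) was lower in a call that was lost without any 1 library labelled triple knockout or control replicate 2 (limma adjusted p from 0.000529 to 0.1 over the alternatives). Zfp516, a regulator of brown fat genes (0.01), and Zfp467 (-0.34) did not pass. With GC content and transcript length removed, Zfp467 was lower (-0.90, limma adjusted p = 0.0252, with a range of 0.0252 to 0.764 over the alternatives).

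Among the members with the largest normalized counts, which also grow with transcript length, Zfp871 had 4015, 3954 and 4653 in labelled triple-knockout libraries, against 8725, 7605 and 10735 in controls (log2 change -1.09 ± 0.15; limma adjusted p = 0.000552). Zfp704 had 5265, 4421 and 5261 in libraries labelled triple knockout and 4825, 4514 and 5605 in controls, with a log2 change of 0.00 ± 0.14 and groups that overlapped. Zfp266 had 2965, 2841 and 3091 in libraries labelled triple knockout and 4369, 3804 and 5061 in controls. Its log2 change of -0.56 passed the test (limma adjusted p = 0.0106), and did not without labelled triple-knockout replicate 2 (0.0532, with a range of 0.00709 to 0.0665 over the alternatives).

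A KRAB box was found by a sequence profile in 106 of the 206 members with a scored protein. KRAB genes were lower in 57 cases (53.8%) and higher in 6, with a median log2 change of -0.71. The 100 genes without the box were lower in 43 cases and higher in 9, with a median of -0.42. Over protein-coding genes averaging 100 or more, 20.1% were lower and 25.9% higher. The entry rule bore unequally on the classes. A labelled triple-knockout mean of at least 100 was held by 88 of the 106 KRAB genes and 94 of the 100 others. A control mean of at least 100 was held by 104 and 95. Members that entered only through the controls were thus more frequent among KRAB genes, which favours lower calls there. The 5 members that were not scored, Zfp236, Zfp407, Zfp516, Zfp532 and Zfp608, had 1 rise and no fall. The difference between the classes was not tested, and base composition differed between them: the median transcript GC content was 42.3% in KRAB genes and 49.3% in genes without the box. With GC content and transcript length removed, the medians were -0.56 and -0.50, and 44 and 42 genes were lower. The count of lower genes without the box fell to 23 without labelled triple-knockout replicate 1 or 2, to 25 without labelled triple-knockout replicate 3 and to 27 without control replicate 1. The count of higher KRAB genes fell to 3 without labelled triple-knockout replicate 1, labelled triple-knockout replicate 3 or control replicate 1, and the count of higher genes without the box was 14 without control replicate 3.

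Members with few and with many fingers alike included lower genes. Those with 0 to 4 patterns were lower in 19 of 44 cases (median log2 change -0.44), those with 5 to 9 in 27 of 55 (-0.48), those with 10 to 14 in 33 of 62 (-0.68), and those with 15 or more in 21 of 45 (-0.63). Higher genes numbered 3, 3, 5 and 4 in these classes. Over protein-coding genes averaging 100 or more, 20.1% were lower and 25.9% higher. The 8 members without any pattern were Zfp36, Zfp185, Zfp326, Zfp330, Zfp365, Zfp503, Zfp703 and Zfp839, among them the CCCH-type Zfp36. These differences between groups of members were not tested.

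Lower Zfp genes were found at every level of transcript GC content, while among other genes the change rose with GC content. In 4 classes of transcript GC content, with limits at 40.5%, 44.8% and 51.8%, the median log2 change of Zfp genes was -0.69, -0.75, -0.29 and -0.50 from low to high GC. The other protein-coding genes with a mean of at least 100 had medians of -0.17, -0.12, 0.02 and 0.22. The share of lower Zfp genes was 53.8%, 60.8%, 33.3% and 46.2%, against 28.7%, 25.1%, 21.4% and 13.6% of the other genes. The Zfp median thus lay below that of the other genes in each class. With GC content and transcript length removed in each library, 86 of 206 Zfp genes were lower, 11 were higher and the median was -0.52.

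**Figure D3:**
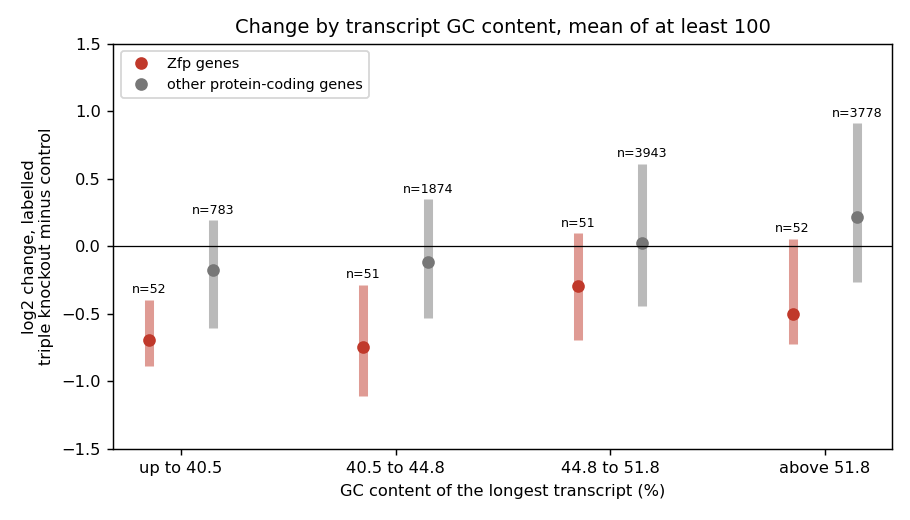
Median (point) and quartiles (bar) of the log2 change, labelled triple knockout minus control, in 4 classes of transcript GC content, for Zfp genes (red, left of each pair) and other protein-coding genes (grey), all averaging 100 or more normalized counts. The Zfp medians of -0.69, -0.75, -0.29 and -0.50 lie below the grey medians of -0.17, -0.12, 0.02 and 0.22.

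Zfp genes lay on 20 chromosomes, with 50 of the 211 on chromosome 7. The median log2 change was below 0 on 18 of them. On chromosome 7, 27 of 50 were lower and 0 higher (median -0.69), against 17.4% lower and 27.8% higher among the other protein-coding genes there. Without labelled triple-knockout replicate 2 or 3 the lower count on chromosome 7 was 17, and without control replicate 3 there was 1 higher gene. On chromosome 9, 10 of 13 were lower and 0 higher (median -0.91), against 22.0% lower and 25.3% higher among the other genes. There was 1 higher gene on chromosome 9 without control replicate 3. On chromosome 13, 8 of 13 were lower and 0 higher (median -0.78), against 31.4% lower and 22.3% higher. Chromosome 17 had 9 lower of 21 and 1 higher, Zfp57, against 17.4% lower and 24.4% higher among other genes. Without control replicate 3 it had 3 higher. Chromosome 8 had 6 lower of 19 and 3 higher (Zfp423, Zfp612 and Zfp703), against 18.1% lower and 25.1% higher among other genes. Chromosome 11 had 7 lower of 10 and 1 higher, against 14.8% lower and 27.4% higher among other genes. Its lower count became 3 or 4 without any 1 library other than control replicate 3. Chromosome 6 had 6 lower of 11 and 2 higher, against 21.6% lower and 28.1% higher. Its lower count became 2 or 3 without labelled triple-knockout replicate 1 or 2 or control replicate 1 or 2. Chromosome 15 had 2 higher and 2 lower of 7, against 27.9% higher and 15.8% lower among other genes. No gene of the 3 on chromosome 1 passed the test, where 27.5% of other genes were higher and 21.9% lower.

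**Figure D4:**
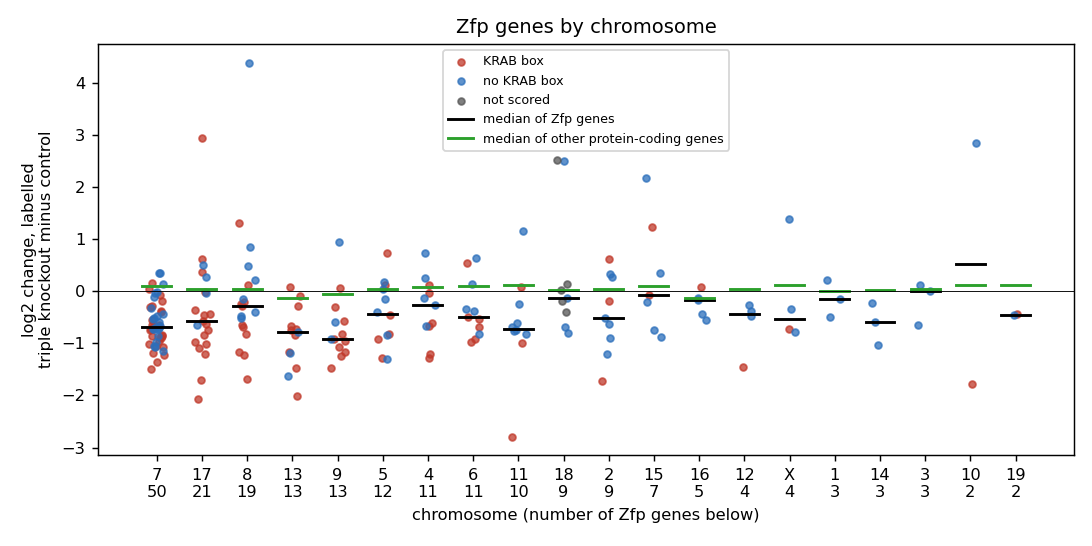
Log2 change, labelled triple knockout minus control, of each of the 211 Zfp genes by chromosome, with chromosomes ordered by their number of Zfp genes, given below the axis. Black bars are the medians of the Zfp genes and green bars those of other protein-coding genes with a mean of at least 100; on chromosome 7 the medians are -0.69 and 0.11.

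Zfp genes that lay close together held most of the KRAB genes, and 54.5% of them were lower. When members whose starts lay under 1 Mb apart were joined, 22 runs of at least 3 members held 112 genes, 82 of them with a KRAB box. Of these 112, 61 were lower (54.5%) and 3 higher; without labelled triple-knockout replicate 2, 39 were lower. The 99 members outside runs had 39 lower (39.4%) and 13 higher. The 211 tested protein-coding genes inside the same runs whose symbol does not start with Zfp and a number had 29 lower (13.7%) and 36 higher. Less expressed Zfp genes inside the runs, such as Zfp112 and Zfp760, were counted neither as members nor as neighbours. These neighbours needed a mean of only 10, where members needed 100, so the shares are of genes of unlike level. With a limit of 0.5 Mb, 53 of 93 members in runs were lower (57.0%) and 0 were higher. A run is defined by distance alone, and some hold many other genes, such as 52 in the run on chromosome 15. None of these differences was tested, since members of a run are not independent and can share sequence.

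The runs differed among themselves. In the run at chr17:32765496-33631779, 6 of 9 members were lower (Zfp871, Zfp799, Zfp952, Zfp81, Zfp101 and Zfp414), all 9 log2 changes were negative, from -2.07 to -0.37, and none of the 8 neighbours passed the test. In the run at chr7:29768552-30169750, 5 of 7 members were lower (Zfp84, Zfp940, Zfp74, Zfp260 and Zfp146), and Zfp568 had a log2 change of 0.05. In the run at chr9:19622102-20605409, 5 of 6 members were lower, with a median of -0.87, as were 3 of 8 neighbours. All 3 members at chr5:138139702-138619761, Zfp113, Zfp157 and Zfp68, were lower, whereas 2 of 12 neighbours were lower and 2 higher. By contrast, the 8 KRAB genes at chr13:67254918-67827002 had 3 lower, and the 4 genes at chr15:75616679-76892395 had 2 higher (Zfp623 and Zfp7) and 1 lower (Zfp41). At chr11:58307069-59472474, Zfp692 was higher while Zfp672, Zfp39 and Zfp867 were lower.

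Sequence sharing and overlap bear on how reads were assigned to these genes. Of 206 members, 163 shared under 10% of their 31-base words with other genes, and 81 of these were lower (49.7%). At least 25% was shared by 18. A gene on the other strand with a mean of at least 10 overlapped the span of 54 of the 211 members, introns included. Of the 157 without such an overlap 77 were lower (49.0%). Of all 211 members 47.4% were lower. Over protein-coding genes averaging 100 or more, 20.1% were lower and 25.9% higher. Whether sharing or overlap altered the values was not tested.

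Less expressed Zfp genes and related zinc-finger families were counted for comparison. Of the 128 Zfp genes with a mean of 10 to under 100, 32 were lower and 9 higher, with a median log2 change of -0.36. Of 35 Zbtb genes, which pair C2H2 fingers with a BTB domain, 9 were lower (25.7%) and 1 higher (median -0.24), and of 13 Zscan and Zkscan genes, which carry a SCAN domain, 4 were lower and 1 higher (median -0.47). The background is 15.3% lower and 20.5% higher over all tested genes, and 20.1% lower and 25.9% higher over protein-coding genes averaging 100 or more, the level of the Zbtb, Zscan and Zkscan genes counted here. Whether the shares differ from that of the 211 genes or from the background was not tested.

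Cofactors of KRAB proteins were measured beside them, in 1 list with other genes of H3K9 silencing and DNA methylation. Of 29 genes, 9 were lower and 4 higher, where 20.1% of protein-coding genes averaging 100 or more were lower and 25.9% higher, with a median log2 change of -0.17; without any 1 library other than control replicate 3 the higher genes numbered 1 or 2. Trim28 had 1537, 1460 and 1698 normalized counts in labelled triple-knockout libraries, against 1649, 1396 and 1900 in controls, a log2 change of -0.07 ± 0.15 (limma adjusted p = 0.771), and the groups overlapped. With GC content and transcript length removed, Trim28 was lower (-0.72, limma adjusted p = 0.00395, with a range of 0.00395 to 0.973 over the alternatives). Setdb1 had 976, 819 and 963 in libraries labelled triple knockout and 1597, 1503 and 1121 in controls; its log2 change of -0.60 passed (limma adjusted p = 0.021), and did not without labelled triple-knockout replicate 2 or 3 or control replicate 1 or 2 (0.00126 to 0.0898 over the alternatives). Atf7ip, which stabilizes Setdb1, had 1933, 1692 and 1752 in labelled triple-knockout libraries and 4878, 4931 and 4404 in controls (log2 change -1.40 ± 0.12; limma adjusted p = 3.9e-05). The remodeller Smarcad1 fell with a log2 change of -1.53 and the H3K9 methyltransferase Suv39h1 with -1.19. The methylation maintenance genes Uhrf1 (-1.01) and Dnmt1 (-0.88) were lower, and the NuRD remodellers Chd4 and Chd3 differed in direction, with Chd4 higher (0.75) and Chd3 lower (-0.69). Rbbp4, another NuRD subunit, was lower (-0.66), in a call that was lost without labelled triple-knockout replicate 2 (limma adjusted p from 0.0111 to 0.0799 over the alternatives). Hdac1, Hdac2 and Dnmt3a were the other higher genes.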

How the data were processed

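The 6 libraries were assigned to triple knockout (3) or control (3) from titles and genotype labels. The labels do not name separate animals: the p-values reflect the spread among libraries alone, part of which may be technical. Xist differed widely within each group (390, 99785 and 142 in controls), so the libraries of a group were not all repeats of 1 sample. How many animals they stand for is not known. Values are the authors' normalized counts, per the file headers, and were handled as a deposited signal. The submitters' processing notes name kallisto (0.42.5) with DESeq2; their settings and the strand are not given in the sources used here. Of values up to 20 reads, 26.0% to 42.3% were whole multiples of the smallest step to within 0.01 of a read, so whole reads could not be had, and neither a count model nor counting intervals were used.

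Genes with a mean of at least 10 were tested as log2(value + 1) with limma 3.58.1 (R 4.3.3; trend, robust), labelled triple knockout minus control, with Benjamini-Hochberg adjustment over 23006 genes and a threshold of 0.05; the fit was tested on simulated data. Zfp members, lists and roles were chosen with earlier results of these data known. Named were the 12 largest calls in each direction without overlap between groups, the 6 highest means and 3 genes on each side of the limit; role and cofactor lists were set by known function, and the examples in runs and on chromosomes, the 4 higher genes outside the 12, and Eed, Ring1 and Rnf2 stand outside this rule. Coordinates are as deposited; 37483 identifiers (98.0%) had identical coordinates in GENCODE M21 (GRCm38), which gave transcripts, GC content and length (22387 of 23006 tested genes) and proteins. KRAB boxes were scored with pyhmmer 0.12.3, with a profile from 155 seed genes (E-value 0.01), and fingers by a C2H2 pattern. Promoters came from RefSeq. Pseudocount, filter, scaling, variance model, replicate block, GC and length, Xist and each library were varied.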

Additional observations from a re-analysis of the deposited data

How the results depend on the processing

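All 116 calls among the Zfp genes kept their sign in every alternative in which they were fitted, except 1 of 115 with GC content and transcript length removed, Zfp316 (-0.026). In that fit the cofactor Mta1, which did not pass otherwise, changed to -0.42. Lower calls that held in every alternative numbered 54, and higher calls 9. Leaving out single libraries gave 63 to 105 lower and 11 to 22 higher Zfp genes, with medians of -0.58 to -0.48; the lowest count, 63, came without labelled triple-knockout replicate 2. With quantile normalization the median over all genes was -0.17 and that of the Zfp genes -0.69, with 123 lower and 13 higher Zfp genes, and over all genes 4177 higher and 4974 lower, against 4726 and 3516 as deposited. Without trend and robust variance 76 Zfp genes were lower and 14 higher, and with Xist as covariate 86 and 15. Xist was 67020, 1453 and 76151 in libraries labelled triple knockout and 390, 99785 and 142 in controls, so high levels were not balanced between the groups. A control mean of at least 100 as the limit, which by itself favours lower genes, gave 5.05% higher, and runs of 0.5 Mb held 0% higher members. Same-numbered libraries did not deviate together (correlations of 0.061, -0.023 and 0.022), so the numbers were not taken as pairs; with the replicate block 15 Zfp genes were higher and 94 lower. With 3 libraries a group and no recovered reads, the depth behind members near the limit is unknown, and small changes could be missed.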
